A study of Mus musculus with 20 samples.

Results

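The question was whether 2 adjuvants carried on the same lipoparticle changed each gene of a macrophage by more or by less than their separate effects predict. Bone marrow-derived macrophages (BMDM) are primary phagocytes that mature from marrow precursors under the growth factor CSF-1, which the culture received through medium conditioned by the L929 fibroblast line. Marrow came from 5 mice, and cells of each mouse were treated for 48 h under 4 conditions: LP 3M PIC (the lipoparticle with both adjuvants), LP 3M and LP PIC (the lipoparticle with a single adjuvant) and LP (the lipoparticle alone), so that the same carrier is common to all 4. No untreated cells entered the comparison. The sources used here do not give the strain, sex or age of the mice or the amounts of adjuvant. Equal amounts in the single and dual formulations are therefore assumed in everything that follows.

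The interaction of a gene is the change from adding PIC to 3M minus the change from adding PIC to the particle alone, (LP 3M PIC - LP 3M) - (LP PIC - LP). The linear test and the per-mouse values take it within each mouse. The main log2 test takes it between condition means over 20 libraries and does not pair the libraries of a mouse. The interaction was computed for every expressed gene, which is 12132 of the 24421 genes in the count tables, and no gene was chosen by its value. On the log2 scale an interaction of 0 means that LP 3M PIC sits at the product of the separate fold changes. On the linear scale of CPM, a gene's count scaled to the size of its library after TMM adjustment, 0 means that LP 3M PIC sits at the sum of the separate changes in CPM. The scales answer different questions by arithmetic: where both adjuvants move a gene the same way, the product expectation lies above the sum expectation, and where only 1 of them moves it the expectations coincide. A value above an expectation is called synergy here and a value below it antagonism, as names of a position only.

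Macrophages read microbial products through Toll-like and cytosolic receptors, whose adaptors lead to NF-kB and MAP kinases on one side and to interferon regulatory factors on the other. NF-kB drives cytokines, chemokines and its own inhibitors, while interferon regulatory factors drive type I interferon, which acts back on the cell and switches on antiviral genes. Strong activation also slows division, redirects lipid and mitochondrial metabolism and engages stress responses. Receptor pairs are known to act together on some cytokine genes, of which Il12b and Il6 are the textbook cases, and shared steps downstream are known to saturate.

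The libraries held between 9740528 and 23874805 gene counts (median 22751911). In CPM, 3 counts in a library are worth 0.126 to 0.308. The shallowest was the LP library of mouse 2. Macrophage markers were present in every library: 10 of 10 were tested, and their summed level had a median of 14974 CPM in LP 3M PIC, 23586 CPM in LP 3M, 15959 CPM in LP PIC and 18118 CPM in LP. Markers of T and NK cells, B cells and mast cells summed to medians under 4 CPM in each condition, Cd3e and Cpa3 were at 0, and the 5 erythroid markers were at 0 throughout. The endothelial list summed to a median of 80.5 CPM in LP 3M PIC (34.3 to 155), 21.7 CPM in LP 3M (17.6 to 34.3), 70.2 CPM in LP PIC (45.5 to 107) and 35.7 CPM in LP (28.9 to 46.8). Most of it was Kdr, a VEGF receptor, with medians of 77.9 CPM in LP 3M PIC, 21.0 CPM in LP 3M, 69.6 CPM in LP PIC and 35.2 CPM in LP, while Cdh5 and Tek had medians under 1 CPM in each condition. Lists of neutrophil and dendritic markers also differed between conditions and are given beside the cytokines and chemokines. The part of these markers in the results was not tested.

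Departures from the product of the single effects were found for 1023 of 12132 genes (8.43%) on the log2 scale, 463 above it (3.82%) and 560 below it (4.62%), by the edgeR quasi-likelihood test at p-values under 0.05 after Benjamini-Hochberg adjustment over every tested gene. An interaction of at least 1 in size was called for 435 genes (3.59%). With the mouse as a block the same test gave 704 above and 952 below. Departures from the sum were found for 1787 genes (14.7%) on the linear scale, 1051 above (8.66%) and 736 below (6.07%), by limma on the 5 per-mouse values. For 284 of the 1051 the sum expectation was below 0, which no level can reach, so their direction was fixed in advance. The share of 8.66% includes these genes. Both scales called 311 genes above and 343 genes below, 13 genes lay above the sum and below the product, and no gene lay below the sum and above the product. Across all genes the interaction was centred, with a median of 0.00098 on the log2 scale and 0.285 CPM on the linear scale.

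The counts rest unequally on the mice. Among the log2 calls, the median interaction of the genes above the product was 1.15, 1.09, 0.55, 0.94 and 0.38 in mice 1 to 5, and that of the genes below it was -0.98, -1.01, -0.64, -0.80 and -0.54. Mice 3 and 5 thus showed the same directions at smaller size. Without mouse 1 the log2 scale gave 182 calls, without mouse 2 it gave 291 and without mouse 4 it gave 242, against 702 without mouse 3 and 1398 without mouse 5. The linear scale gave 637, 929, 1232, 731 and 1700 calls without mice 1 to 5. No gene called with all mice changed its direction in any of these, but the fits reuse the libraries that gave the calls, so this is a description.

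**Figure D1:**
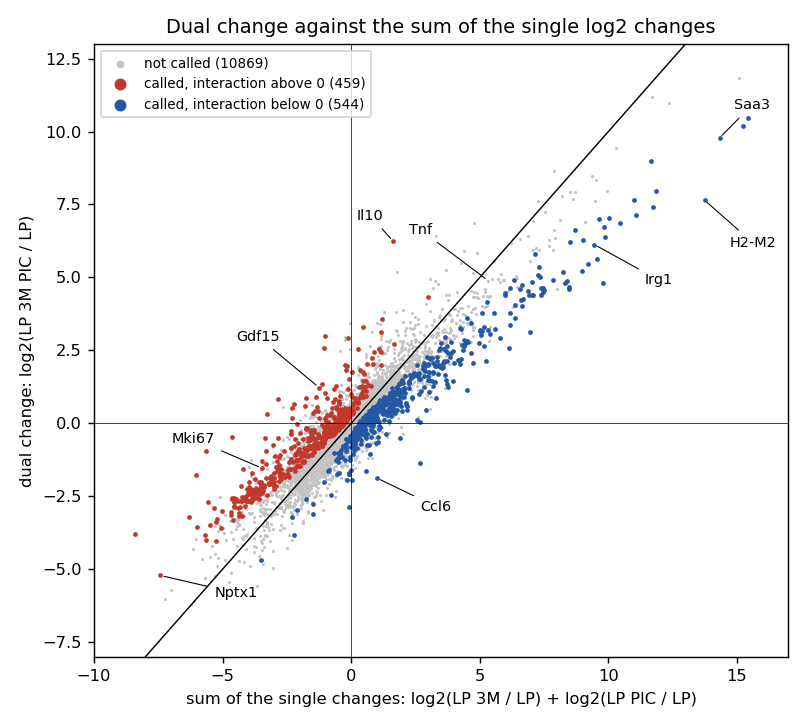
Log2 change of LP 3M PIC over LP (y axis) against the sum of the log2 changes of LP 3M over LP and LP PIC over LP (x axis), 1 point per gene; 11872 genes with a mean of at least 3 counts per library in every condition are drawn. Points on the diagonal have an interaction of 0. Called genes above it (459, red) lie mostly at the left, where the sum of the single changes is below 0. Called genes below it (544, blue) lie mostly at the right, where that sum is above 0.

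Genes that both singles raised tended to stay short of the product, and genes that both lowered tended to stay above it. Of the 1130 genes called higher in LP 3M and in LP PIC, 333 (29.5%) lay below the product and 993 had an interaction below 0. Their median log2 change in LP 3M PIC was 0.89 where the summed single changes had a median of 1.21. Of the 1209 genes called lower in both, 206 (17%) lay above the product and 9 below it, with a median of -1.27 in LP 3M PIC where the summed single changes had a median of -1.53. Genes sorted by their single effects share the LP 3M, LP PIC and LP libraries with the interaction, with opposite sign, so that these shares are a description. Among the 4473 genes that neither single moved past the threshold, 63 lay above and 72 below the product.

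Induced genes fell into several classes. Of 3840 genes called higher in LP 3M PIC than in LP, 110 lay above the product, and 86 of these also lay above the sum. In 90 of the 110 LP 3M PIC was called above both singles, and in 53 neither single had moved the gene past the threshold. Another 275 lay above the sum with no call against the product, 11 lay between sum and product, 175 lay below the product with no call against the sum, 63 lay below the sum with no call against the product, and 145 lay below both. Among 3711 genes called lower in LP 3M PIC than in LP, 255 lay above the product and 102 below it. In 96 of those 102 LP 3M PIC was called below both singles. Of all 12132 tested genes 463 lay above the product (3.82%) and 560 below it (4.62%). Above the sum lay 1051 (8.66%) and below it 736 (6.07%). The calls against LP and against the singles share libraries with the interaction, so the class counts are a description.

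The summed linear interaction was spread over many genes, most of it outside the top 10. Positive values summed to 101099 CPM over 6800 genes, of which Saa3, an acute-phase serum amyloid, made up 9.52% and the top 10 genes 19.3%. Negative values summed to -127853 CPM over 5332 genes, of which Lyz2, the macrophage lysozyme, made up 5.78% and the top 10 genes 22.2%.

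Among induced genes above the product with enough counts in every condition, Il10, the main anti-inflammatory cytokine of macrophages, had the largest log2 interaction. It measured 158, 178, 28.2, 77.7 and 14 CPM in LP 3M PIC and 11.8, 8.26, 4.19, 6.63 and 0.787 CPM in LP 3M, in mice 1 to 5. The other conditions held 0.586, 1.27, 0.173, 1.02 and 0.399 CPM in LP PIC and 2.47, 2.49, 0.219, 0.663 and 0.629 CPM in LP. Every LP 3M PIC library was above every library of the other conditions, and LP PIC and LP overlapped. The mean of 91.1 ± 74.3 CPM (SD, n = 5) in LP 3M PIC stood against a product expectation of 3.38 CPM and a sum expectation of 5.73 CPM. The log2 interaction was 4.61 ± 1.19 (SE, adjusted p = 0.0226, edgeR), above 0 in 5 of 5 mice, while the linear interaction of 85.4 ± 71.4 CPM did not pass (adjusted p = 0.139, limma).

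Ccl3, a chemokine that draws monocytes and T cells, lay above both expectations. It measured 2423, 2080, 1438, 2017 and 953 CPM in LP 3M PIC and 718, 558, 634, 492 and 268 CPM in LP 3M. Levels were 131, 126, 102, 152 and 73.6 CPM in LP PIC and 120, 91.0, 74.6, 99.9 and 56.5 CPM in LP. The LP 3M PIC libraries did not overlap any other condition, and LP PIC overlapped LP. LP 3M PIC averaged 1782 CPM where the product predicts 706 CPM and the sum 563 CPM, a log2 interaction of 1.33 ± 0.39 (adjusted p = 0.0419, edgeR) and a linear one of 1219 ± 464 CPM (adjusted p = 0.0173, limma). The log2 calls of Il10 and Ccl3 and the linear call of Ccl3 were lost without mouse 1, 2 or 4, and the log2 call of Ccl3 also without mouse 3.

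Among the inflammatory cytokines 8 of 20 tested members lay above the sum, against a background of 8.66% of all genes. Called higher in LP 3M PIC than in LP were 19, against 31.7% of all genes. The 8 were Il6, Il12a, Il27, Tnf, Lif, Csf2, Tnfsf9 and Il1rn. Leaving out each mouse in turn gave 5 to 10 members above the sum, where all genes gave 373 to 1012. On the log2 scale Il10 was the only member above the product and Inhba, the subunit of activin A, the only member below it. That is 5.0% in each direction, near the 3.82% and 4.62% of all genes. The median log2 interaction was 0.15 with 11 members above 0 and 9 below, and -0.08 over the 13 members with at least 10 counts in every condition. Members near 0 in LP have no stable ratio, so Il6, Il12a, Il12b, Csf2 and Csf3 are given on the linear scale only.

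Tnf, the cytokine that gave its name to the tumour necrosis factor family, shows the position between the expectations. It measured 1154, 735, 1025, 1186 and 848 CPM in LP 3M PIC and 506, 283, 550, 402 and 308 CPM in LP 3M. It measured 117, 97.7, 89.8, 136 and 102 CPM in LP PIC and 35.1, 23.5, 38.6, 34.9 and 34.1 CPM in LP. No condition overlapped the next. The mean of 990 ± 195 CPM in LP 3M PIC exceeded the sum expectation of 485 CPM by 504 ± 122 CPM (adjusted p = 0.00205, limma), in 5 of 5 mice. It lay under the product expectation of 1338 CPM without a call, at a log2 interaction of -0.43 ± 0.26 (adjusted p = 0.332, edgeR), while limma on the per-mouse log2 values called it below (adjusted p = 0.0216).

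Il6, which induces acute-phase proteins, measured 363, 369, 231, 274 and 72.1 CPM in LP 3M PIC and 39.1, 24.9, 10.5, 6.78 and 0.437 CPM in LP 3M, and stayed under 1 CPM in every LP PIC and LP library. It exceeded the sum by 245 ± 109 CPM (adjusted p = 0.038, limma), a call that was lost without mouse 1, 2, 3 or 4. Il12b, the p40 subunit of interleukin 12, measured 547, 241, 357, 525 and 97.9 CPM in LP 3M PIC, while the highest single library held 4.56 CPM. Its LP 3M PIC libraries were all far above the sum expectation of 3.13 CPM, but the excess of 350 ± 189 CPM varied with the mouse and was not called (adjusted p = 0.0579). Il12a, the p35 subunit, averaged 3.98 ± 1.27 CPM in LP 3M PIC and 0.436 ± 0.407 CPM in LP 3M, and was at 0 in every LP PIC and LP library. Its excess over the sum was 3.54 ± 1.25 CPM (adjusted p = 0.00429), kept without any mouse.

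Il1b and Il1a, the interleukin 1 ligands, reached means of 1055 ± 749 and 1168 ± 697 CPM in LP 3M PIC, with sum expectations of 133 CPM for Il1b and 118 CPM for Il1a. Both were above the sum in 5 of 5 mice, and neither was called on the linear scale (adjusted p = 0.111 and 0.0718). Il27, a cytokine subunit that acts on T cells, averaged 18.4 ± 8.59 CPM in LP 3M PIC against a sum expectation of 3.79 CPM (linear adjusted p = 0.0294, lost without mouse 1 or 4). Inhba averaged 139 ± 26.3 CPM in LP 3M PIC, 27.5 ± 20.4 CPM in LP 3M, 42.6 ± 19.8 CPM in LP PIC and 1.08 ± 0.216 CPM in LP. That is below a product expectation of 1084 CPM, with a log2 interaction of -3.00 ± 0.71 (adjusted p = 0.0143), lost without mouse 1 or 2.

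Prostaglandin synthase Ptgs2, the inducible enzyme of prostanoid production, exceeded the sum. It averaged 1479 ± 600 CPM in LP 3M PIC, 160 ± 103 CPM in LP 3M, 36.8 ± 24.9 CPM in LP PIC and 2.15 ± 0.831 CPM in LP. LP 3M PIC lay 1285 ± 497 CPM over the sum (adjusted p = 0.0256, lost without mouse 1, 2, 3 or 4), with no call against the product (log2 interaction -0.89 ± 0.82, adjusted p = 0.554). The heme-degrading enzyme Hmox1 averaged 3023 ± 593 CPM in LP 3M PIC against a sum of 2170 CPM (linear adjusted p = 0.0117), with no call on the log2 scale (adjusted p = 0.63).

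Of 22 tested chemokines Ccl3 and Cx3cl1 lay above the product and Ccl6 and Cxcl16 below it, 9.1% in each direction against 3.82% and 4.62% of all genes. On the linear scale 4 lay above the sum (18.2% against 8.66%) and 3 below it (13.6% against 6.07%). For Cx3cl1, among those above, the sum expectation was below 0 (-0.254 CPM). Cx3cl1, the membrane-bound ligand of the macrophage receptor CX3CR1, averaged 7.66 ± 3.18 CPM in LP 3M PIC, 2.85 ± 1.31 CPM in LP 3M, 1.73 ± 0.647 CPM in LP PIC and 4.83 ± 1.03 CPM in LP. Its log2 interaction was 2.89 ± 0.46 (adjusted p = 0.00105), although LP 3M PIC was not called against LP (adjusted p = 0.0767): both single means were below LP. Ccl6, a macrophage chemokine, ran the other way, at 18.5 ± 5.97 CPM in LP 3M PIC, 96.0 ± 40.5 CPM in LP 3M, 95.7 ± 30.0 CPM in LP PIC and 67.7 ± 27.1 CPM in LP. Its log2 interaction of -2.88 ± 0.53 (adjusted p = 0.00317) stood in 5 of 5 mice and without any mouse. The neutrophil attractants Cxcl1 and Cxcl2 exceeded the sum by 51.9 ± 19.9 and 299 ± 126 CPM (adjusted p = 0.0161 and 0.0187, both lost without mouse 4).

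Markers of neutrophils and dendritic cells moved beside these genes. The neutrophil list summed to a median of 1176 CPM in LP 3M PIC (293 to 4030 CPM), 274 CPM in LP 3M (145 to 710), 107 CPM in LP PIC (82.7 to 188) and 57.2 CPM in LP (31.8 to 73.3). Most of it was Lcn2, an iron-carrier-binding protein that macrophages also make, with a median of 1000 CPM in LP 3M PIC and 3.87 CPM in LP. Csf3r, the G-CSF receptor, had medians of 156 CPM in LP 3M PIC, 90.9 CPM in LP 3M, 67.9 CPM in LP PIC and 51.5 CPM in LP, and S100a8, a calprotectin subunit, 18.6, 6.85, 2.83 and 1.53 CPM. Camp, a granule peptide, stood at 1.28 CPM in LP 3M PIC and 0 in LP. Elane and Cxcr2 had a median of 0 in every condition, Retnlg was at 0 in every library and Mpo had a median of 0.159 CPM in LP 3M PIC. The dendritic list summed to a median of 20.2 CPM in LP 3M PIC against 0.0872 CPM in LP, of which Ccr7 was 19.9 CPM, while Xcr1 and Siglech had a median of 0 in every condition. In bulk RNA, more or fewer cells of a type and more or less RNA per cell cannot be told apart, and the part of these markers in the cytokine results was not tested.

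**Figure D2:**
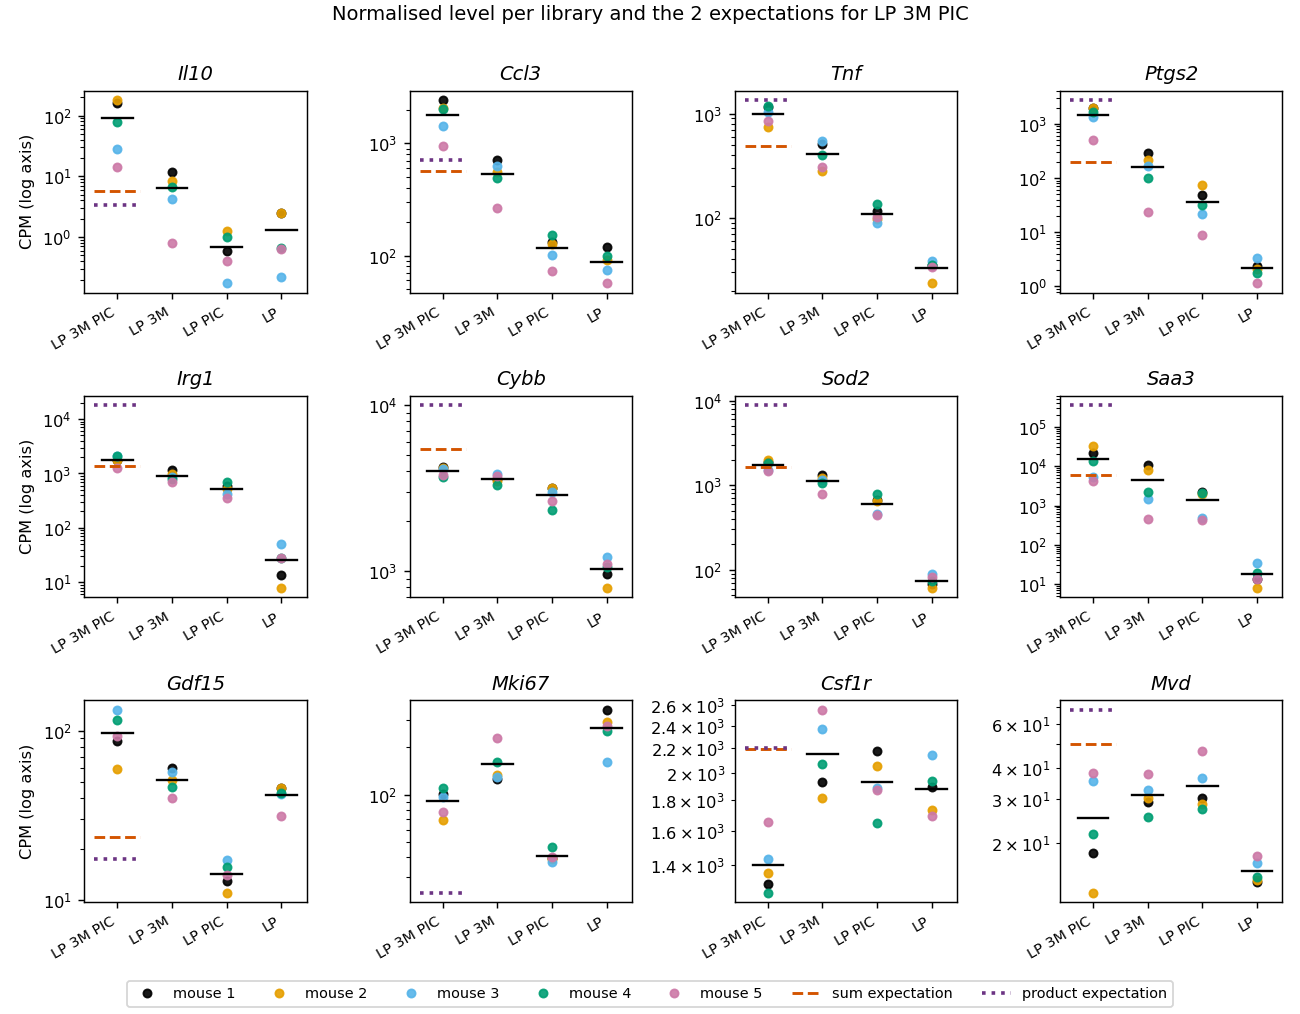
Level of 12 genes in each library (CPM, log axis), by condition and coloured by mouse; black bars are means of 5 mice, and over LP 3M PIC the dashed line is the sum expectation and the dotted line the product expectation from the single means. For Mki67 the sum expectation is below 0 and is not drawn. Il10, Ccl3 and Gdf15 lie above both lines, Tnf and Ptgs2 between them, Cybb, Csf1r and Mvd below both, and Irg1 and Saa3 below the product.

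Some genes of low level were higher in LP 3M PIC than in LP while neither single one raised them. Dusp2, a phosphatase that switches off MAP kinases, averaged 19.8 ± 12.7 CPM in LP 3M PIC, 2.25 ± 0.42 CPM in LP 3M, 1.38 ± 0.265 CPM in LP PIC and 2.47 ± 0.536 CPM in LP. Its log2 interaction was 3.99 ± 0.58 (adjusted p = 0.000399) and stood without any mouse. Htra4, a secreted serine protease, averaged 5.95 ± 3.26 CPM in LP 3M PIC and under 1 CPM in each other condition (log2 interaction 3.05 ± 0.73, adjusted p = 0.0142, lost without mouse 1, 2 or 4). Ccnd2, a D-type cyclin, measured 26.8 ± 13.5 CPM in LP 3M PIC, 7.40 ± 2.92 CPM in LP 3M, 8.40 ± 3.24 CPM in LP PIC and 14.6 ± 2.51 CPM in LP (log2 interaction 2.64 ± 0.51, adjusted p = 0.00481).

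Gdf15, a stress-induced hormone of the TGF-beta family, varied least between mice among the 5 genes named by rank in this class. It measured 86.3, 59.2, 133, 116 and 92.3 CPM in LP 3M PIC and 60.4, 51.1, 57.2, 46.6 and 40 CPM in LP 3M. It measured 12.9, 11.1, 17.3, 15.7 and 14 CPM in LP PIC and 45.7, 45.6, 42.2, 42.6 and 31.5 CPM in LP. LP PIC was the lowest condition in every mouse, and LP 3M PIC the highest in 4 of them by a wide margin and in mouse 2 by a narrow one. Adding PIC thus went with a lower level on the particle alone and a higher level beside 3M. The log2 interaction was 2.48 ± 0.25 (adjusted p = 1.27e-05), between 2.24 and 2.75 in the single mice, and the linear interaction 73.6 ± 24.7 CPM (adjusted p = 0.00873). Both stood without any mouse.

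Stress-response genes were called above the product and on both sides of the sum. The list of the unfolded protein and integrated stress response had 26 tested members with a median log2 interaction of 0.09. Above the product were 6 of them (23.1% against 3.82% of all genes): Atf4, the factor that translational stress releases, Atf3, Ppp1r15a, which restores translation, Trib3, Asns and Chac1. Below it was 1 (3.8% against 4.62%), Calr, the calcium-binding chaperone of the endoplasmic reticulum. Below the sum were 4 (15.4% against 6.07%), Calr, Pdia4, Sdf2l1 and Herpud1, which fold or clear proteins there. Above the sum were 5 (19.2% against 8.66%), Atf3, Ppp1r15a, Trib3, Asns and Chac1. Leaving out each mouse in turn gave 2, 3, 5, 1 and 6 members above the product, where all genes gave 60, 105, 338, 88 and 616.

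Trib3, a pseudokinase induced by ATF4, measured 21.5, 24.5, 23.7, 22.9 and 26.4 CPM in LP 3M PIC and 10.8, 12.6, 15.7, 12.9 and 11.2 CPM in LP 3M. It measured 14.2, 14, 16.6, 17.8 and 18.8 CPM in LP PIC and 11.6, 16.4, 25.2, 18.7 and 21.9 CPM in LP. LP 3M PIC was above both singles in every mouse and overlapped LP. The log2 interaction was 1.12 ± 0.22 (adjusted p = 0.00481) and the linear one 13.6 ± 4.16 CPM (adjusted p = 0.00389), each kept without any mouse. Chac1, which degrades glutathione, averaged 6.15 ± 0.673 CPM in LP 3M PIC, 3.38 ± 0.653 CPM in LP 3M, 2.51 ± 0.315 CPM in LP PIC and 3.69 ± 1.36 CPM in LP. Its log2 interaction was 1.42 ± 0.29 (adjusted p = 0.00644, lost without mouse 4). Calr averaged 1447 ± 79.9 CPM in LP 3M PIC, 1676 ± 318 CPM in LP 3M, 1486 ± 122 CPM in LP PIC and 1204 ± 73.0 CPM in LP, under a sum expectation of 1958 CPM (linear adjusted p = 0.0268, lost without mouse 1, 2 or 4). Osgin1, a target of the oxidative stress factor NRF2, also lay above the product, at 49.3 ± 6.29 CPM in LP 3M PIC against 32.1 ± 2.99, 25.7 ± 2.73 and 34.8 ± 5.05 CPM in LP 3M, LP PIC and LP (log2 interaction 1.05 ± 0.15, adjusted p = 0.000359).

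Promoters are shown for 4 genes, each from a group described here, as the 250 bases before the RefSeq start site in mouse build GRCm38.p6, written along the gene's strand. They were chosen after the values were seen, for a motif that the group's known regulators read, and the capitals mark the motif matches named with each. Chac1, on the plus strand at chr2:119350992-119351241, carries a CARE, the element that ATF4 binds (TGATGNAA on either strand), which begins 193 bases before the start site and is written here as its reverse complement. Its gene spans chr2:119351229-119354381.
Chac1: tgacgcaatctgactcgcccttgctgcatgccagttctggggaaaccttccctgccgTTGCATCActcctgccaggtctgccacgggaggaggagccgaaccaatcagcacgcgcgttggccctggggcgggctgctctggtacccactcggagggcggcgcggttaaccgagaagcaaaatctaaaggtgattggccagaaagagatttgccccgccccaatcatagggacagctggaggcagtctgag
Nfkbie, on the plus strand at chr17:45555450-45555699 before its gene at chr17:45555703-45563169, carries a kB match 106 bases before the start site, the kind of element that NF-kB dimers bind.
Nfkbie: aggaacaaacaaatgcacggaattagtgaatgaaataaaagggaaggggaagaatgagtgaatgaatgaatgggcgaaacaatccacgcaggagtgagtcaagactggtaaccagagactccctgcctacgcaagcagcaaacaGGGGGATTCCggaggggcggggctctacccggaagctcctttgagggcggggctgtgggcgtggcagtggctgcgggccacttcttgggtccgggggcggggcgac
Ccnb2, on the minus strand at chr9:70421555-70421804 with its gene at chr9:70407692-70421547, carries a match to the letters of the CHR motif of mitotic genes (TTTGAA, at -167). It also carries matches to the CCAAT box (CCAAT, at -87, -54 and -21). Whether the match at -167 acts as a CHR was not tested.
Ccnb2: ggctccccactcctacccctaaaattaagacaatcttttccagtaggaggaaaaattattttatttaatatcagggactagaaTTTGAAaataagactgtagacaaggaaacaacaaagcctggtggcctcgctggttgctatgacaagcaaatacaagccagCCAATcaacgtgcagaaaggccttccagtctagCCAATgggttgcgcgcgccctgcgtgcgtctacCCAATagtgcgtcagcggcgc
Hmgcs1, on the plus strand at chr13:119690101-119690350 before its gene at chr13:119690379-119708260, carries an SRE, the sterol element of SREBP (TCACNCCAC, at -137), and CCAAT boxes at -237, -176 and -45, in their reverse complement.
Hmgcs1: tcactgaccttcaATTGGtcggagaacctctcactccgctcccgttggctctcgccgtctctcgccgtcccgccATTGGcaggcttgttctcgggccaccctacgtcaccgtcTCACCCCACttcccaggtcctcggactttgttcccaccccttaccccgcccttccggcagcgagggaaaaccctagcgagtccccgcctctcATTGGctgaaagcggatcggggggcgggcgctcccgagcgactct

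A window was available for 9292 of the 12132 tested genes, and a match in it is a description of the letters only. CARE was found in 2.55% of all windows, in 17.4% of the 23 windows of the stress list and in 3 of the 6 stress genes above the product. The kB match was found in 5.50% of all windows and in 42.3% of the 26 windows of the NF-kB list. CHR was found in 12.5% of all windows and in 27.3% of the 33 windows of the cell division list, and the CCAAT box in 40.6% and 72.7%. These matches were not particular to the lists named. CHR was found in 50% of the 10 windows of interferon-inducible GTPases and 33.3% of the 18 inflammasome windows. The CCAAT box was found in 87.5% of the 8 MHC class II windows and 78.3% of the 23 stress windows. The kB match was found in 40% of the 15 MHC class I windows. For CARE and kB no other list had a higher share. In the 17 windows of the cholesterol list the CCAAT box was found in 94.1%. The SRE was found in 1 of them, that of Hmgcs1, which was picked for this motif, so its share says nothing about the list.

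Among NF-kB regulators and targets 9 of 30 tested members lay below the product (30.0% against 4.62% of all genes). All 30 were called higher in LP 3M PIC than in LP, against 31.7% of all genes. The median log2 interaction was -0.47, with 25 members below 0 and 5 above. The 9 were the subunits Nfkb2 and Relb, the inhibitor Nfkbie, the co-factor Bcl3, the survival genes Birc3 and Bcl2a1d, the adaptor Traf1, the kinase Ikbke and Sod2, the mitochondrial superoxide dismutase. Leaving out each mouse in turn gave 4 to 14 members below the product, and the block gave 14. All genes gave 122 to 782, and 952 with the block. On the linear scale 6 members lay above the sum (20.0% against 8.66% of all genes) and 1, Relb, below it (3.3% against 6.07%). The scales can differ in this way for genes that both adjuvants raise.

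Sod2 measured 1883, 1970, 1530, 1827 and 1488 CPM in LP 3M PIC and 1325, 1204, 1164, 1055 and 779 CPM in LP 3M. It measured 663, 646, 459, 784 and 447 CPM in LP PIC and 67.3, 61.0, 89.7, 73.1 and 82.3 CPM in LP. LP 3M PIC was the highest condition in every mouse and did not overlap another. Its mean of 1739 ± 217 CPM lay close to the sum expectation of 1631 CPM (linear adjusted p = 0.292) and far under the product expectation of 8879 CPM, with a log2 interaction of -2.35 ± 0.23 (adjusted p = 9.71e-06). Nfkbie, the inhibitor I-kappa-B-epsilon, whose promoter is printed above, averaged 91.2 ± 24.4 CPM in LP 3M PIC, 55.0 ± 11.2 CPM in LP 3M, 100 ± 33.4 CPM in LP PIC and 22.7 ± 3.35 CPM in LP. LP 3M PIC was not called against LP PIC (adjusted p = 0.632), and the log2 interaction was -1.41 ± 0.32 (adjusted p = 0.0107, lost without mouse 1, 2 or 4).

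Among enzymes of arginine, itaconate, prostanoid and oxidant metabolism 7 of 22 tested lay below the product (31.8% against 4.62% of all genes), and 7 had a log2 interaction above 0. Above the sum lay 3 (13.6% against 8.66%) and below it 2 (9.1% against 6.07%). The 7 below the product were Nos2, Arg2, Gch1, Irg1, Ptges, Cybb and Nampt. Irg1, which makes itaconate from a citric acid cycle intermediate, measured 1759, 1768, 2085, 2089 and 1271 CPM in LP 3M PIC and 1139, 965, 856, 784 and 710 CPM in LP 3M. It measured 596, 528, 423, 702 and 359 CPM in LP PIC and 13.5, 7.86, 50.2, 28.4 and 27.8 CPM in LP. In every mouse LP 3M PIC was highest, above a sum expectation of 1387 CPM without a call (adjusted p = 0.0646) and under a product expectation of 18193 CPM (log2 interaction -3.33 ± 0.47, adjusted p = 0.000359). Nos2, the inducible nitric oxide synthase, averaged 249 ± 87.1 CPM in LP 3M PIC, 18.9 ± 12 CPM in LP 3M, 92.9 ± 59.8 CPM in LP PIC and 0.208 ± 0.159 CPM in LP. Its log2 interaction of -5.05 ± 1.11 (adjusted p = 0.00932, lost without mouse 1, 2 or 4) rests on LP libraries with few counts, and the sum expectation was 112 CPM (linear adjusted p = 0.0632).

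Cybb, the membrane subunit of the phagocyte NADPH oxidase, fell short of both expectations while staying well above LP. It measured 4276, 4195, 4137, 3708 and 3795 CPM in LP 3M PIC and 3580, 3499, 3842, 3328 and 3747 CPM in LP 3M. It measured 3194, 3184, 2993, 2325 and 2656 CPM in LP PIC and 957, 791, 1222, 1055 and 1105 CPM in LP. LP 3M PIC overlapped LP 3M, and each of the 3 treated conditions with an adjuvant was above LP. The mean of 4022 ± 254 CPM stood against 5444 CPM for the sum and 10069 CPM for the product, a linear interaction of -1421 ± 309 CPM (adjusted p = 0.00494) and a log2 interaction of -1.32 ± 0.15 (adjusted p = 3.42e-05), both kept without any mouse.

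The induced genes named by rank below the product were ones that each single raised many-fold. H2-M2, an MHC class I gene outside the classical set, averaged 1300 ± 491 CPM in LP 3M PIC, 379 ± 185 CPM in LP 3M, 1512 ± 623 CPM in LP PIC and 6.45 ± 3.08 CPM in LP (log2 interaction -6.09 ± 0.63, adjusted p = 1.52e-05). Saa3 averaged 15523 ± 11789 CPM in LP 3M PIC, 4495 ± 4457 CPM in LP 3M, 1417 ± 886 CPM in LP PIC and 17.5 ± 10.2 CPM in LP (log2 interaction -4.54 ± 1.09, adjusted p = 0.015, lost without mouse 1, 2 or 4). Clec4e, the receptor Mincle for mycobacterial glycolipid, averaged 4004 ± 924 CPM in LP 3M PIC, 2003 ± 307 CPM in LP 3M, 2528 ± 601 CPM in LP PIC and 81.4 ± 41.8 CPM in LP (log2 interaction -3.96 ± 0.40, adjusted p = 1.21e-05). None of these was called against the sum (adjusted p = 0.487, 0.117 and 0.642, limma). For Saa3 this was no closeness to the sum: its linear interaction of 9628 CPM was the largest positive one of all genes and varied between mice. Bcl2a1a, a survival gene with near-identical copies among which reads may be split, and Cfb, complement factor B, had log2 interactions of -4.31 ± 0.46 and -3.93 ± 0.53, both kept without any mouse.

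Genes between the expectations that passed both tests included Prdx5, Ehd1, Slc7a11 and Fpr2. Prdx5, a peroxiredoxin, averaged 1588 ± 220 CPM in LP 3M PIC, 681 ± 160 CPM in LP 3M, 760 ± 107 CPM in LP PIC and 165 ± 29.0 CPM in LP, over the sum of 1276 CPM (adjusted p = 0.0209) and under the product of 3135 CPM (adjusted p = 0.00932). Slc7a11, the cystine importer, averaged 429 ± 73.6 CPM in LP 3M PIC, where the sum predicts 266 CPM (adjusted p = 0.013) and the product 1690 CPM (adjusted p = 0.00628). Without single mice some of these calls were lost. Prdx5 lost the linear one without mouse 3 or 4 and the log2 one without mouse 1 or 4, Ehd1 the log2 one without mouse 1, 2, 3 or 4, Slc7a11 the log2 one without mouse 1, and Fpr2 the linear one without mouse 1, 4 or 5.

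**Figure D3:**
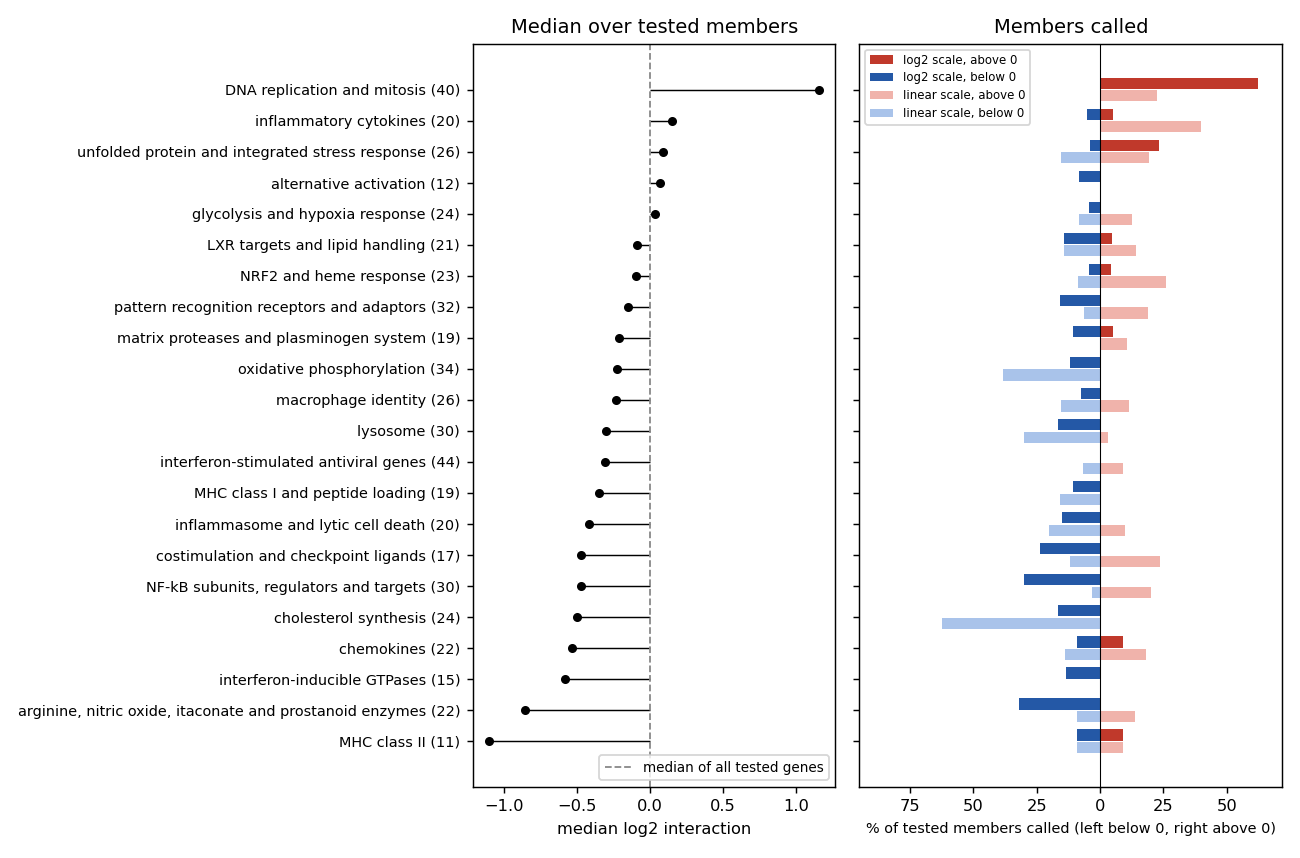
Left, median log2 interaction over the tested members of 22 gene lists (number tested in parentheses), with the dashed line at the median of all tested genes. Right, percent of tested members called, above 0 to the right and below 0 to the left, on the log2 scale (dark) and the linear scale (light); DNA replication and mitosis stands at 62.5% above 0 on the log2 scale, and cholesterol synthesis at 62.5% below 0 on the linear scale.

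Interferon-stimulated antiviral genes gave no interaction call on the log2 scale. All 44 tested members were examined. In LP 3M PIC, 43 were called higher than in LP (against 31.7% of all genes) and 41 higher than in LP 3M (against 20.5%). None passed the test against LP PIC, where 23.1% of all genes were called higher and 21.4% lower. In that test edgeR gave 1 of the members at an unadjusted p under 0.05. Their median log2 interaction was -0.31, with 36 of 44 below 0, but it was -0.36, -0.44, 0.12, -0.64 and -0.02 in mice 1 to 5 and so differed in sign between them. At an unadjusted p under 0.05 edgeR gave 2 members, both below 0, DESeq2 called 1, and limma on the per-mouse log2 values called 9. On the linear scale 4 were above the sum (Ifih1, Oasl1, Mx2 and Parp14) and 3 below it (Ifi27l2a, Slfn5 and Lgals3bp), which at 9.1% and 6.8% is near the 8.66% and 6.07% of all genes.

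Isg15, a ubiquitin-like antiviral protein, measured 479, 337, 595, 602 and 356 CPM in LP 3M PIC and 45.0, 26.5, 127, 78.8 and 19.7 CPM in LP 3M. It measured 311, 228, 206, 571 and 164 CPM in LP PIC and 15.8, 11.3, 50.7, 32.4 and 8.64 CPM in LP. LP 3M PIC overlapped LP PIC and stood above LP 3M and LP in every library. The log2 interaction was -0.63 ± 0.72 (adjusted p = 0.648), an error wide enough to hold a change in either direction. Ifnb1, interferon beta itself, averaged 2.7 ± 2.33 CPM in LP 3M PIC and 1.08 ± 0.586 CPM in LP PIC, and was at 0 in every LP 3M library. The chemokine Cxcl10, an interferon target, averaged 167 ± 69.8 CPM in LP 3M PIC, 2.27 ± 1.18 CPM in LP 3M, 102 ± 62.5 CPM in LP PIC and 1.13 ± 0.439 CPM in LP (log2 interaction -0.32 ± 0.68, adjusted p = 0.822). Among 15 interferon-inducible GTPases 2 lay below the product (13.3% against 4.62% of all genes), led by Gbp6 (log2 interaction -2.40 ± 0.48, edgeR adjusted p = 0.0056, lost without mouse 1 or 4).

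Among 19 MHC class I and peptide-loading genes 2 lay below the product (10.5% against 4.62% of all genes) and 3 below the sum (15.8% against 6.07%), B2m among them, at 4606 ± 336 CPM in LP 3M PIC, 2763 ± 470 CPM in LP 3M, 5778 ± 978 CPM in LP PIC and 2329 ± 605 CPM in LP (linear interaction -1606 ± 990 CPM, adjusted p = 0.0316, lost without mouse 1, 2 or 4). The median log2 interaction of that list was -0.66, -0.69, 0.06, -0.64 and -0.08 in mice 1 to 5, of both signs. Among 11 MHC class II genes the median was -1.10, with H2-Ab1 below the product and H2-Ob above it, 9.1% in each direction against 4.62% and 3.82% of all genes. H2-Ab1, a class II beta chain, averaged 687 ± 335 CPM in LP 3M PIC, 175 ± 62.2 CPM in LP 3M, 792 ± 90.1 CPM in LP PIC and 41.1 ± 20.4 CPM in LP (log2 interaction -2.29 ± 0.51, adjusted p = 0.0107). H2-Ob, which hinders peptide loading, averaged 1.77 ± 0.842 CPM in LP 3M PIC and under 1 CPM in the other conditions (log2 interaction 2.03 ± 0.46, adjusted p = 0.0102). The calls of H2-Ab1 and H2-Ob were lost without mouse 1 or 4, and that of H2-Ab1 also without mouse 2.

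Costimulation and checkpoint ligands held 4 of 17 members below the product (23.5% against 4.62%): Cd86, Tnfrsf9, Icam1 and Cd200r1. Cd86, the CD28 ligand, averaged 33.1 ± 9.01 CPM in LP 3M PIC, 17.2 ± 3.74 CPM in LP 3M, 51.8 ± 9.64 CPM in LP PIC and 10.5 ± 3.38 CPM in LP (log2 interaction -1.34 ± 0.30, adjusted p = 0.0112, lost without mouse 1, 2 or 4). Against LP PIC, LP 3M PIC was called lower (adjusted p = 0.0175). On the linear scale 4 members lay above the sum (23.5% against 8.66% of all genes) and 2 below it (11.8% against 6.07%). Cd274, the inhibitory ligand PD-L1, averaged 869 ± 192 CPM in LP 3M PIC, 223 ± 96.6 CPM over the sum (adjusted p = 0.00862, limma). Its log2 interaction was below 0, as for Cd86, but without a call (-0.86 ± 0.30, adjusted p = 0.0898, edgeR). Cd40, the receptor for T-cell help, averaged 248 ± 128 CPM in LP 3M PIC against a product expectation of 245 CPM (log2 interaction 0.01 ± 0.64, adjusted p = 0.999).

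Cell division genes had the largest share above the product among the 22 lists, although they were lower in LP 3M PIC than in LP. Of 40 tested genes of DNA replication and mitosis, 25 lay above the product (62.5% against 3.82% of all genes), with a median log2 interaction of 1.16 and 39 of 40 above 0. In LP 3M PIC, 37 were called lower than in LP (against 30.6% of all genes) and 37 lower than in LP 3M (against 21%). Higher than in LP PIC were 17 (against 23.1%). The median change over LP was -2.21 in LP 3M PIC, -0.60 in LP 3M and -2.75 in LP PIC on the log2 scale. LP PIC alone thus had the lowest median of the 4 conditions.

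The list rested on the mice unevenly: its median log2 interaction was 2.01, 1.41, 0.59, 1.20 and 0.04 in mice 1 to 5. The number above the product was 3, 5, 29, 6 and 31 without each of them in turn. Calls over all genes also fell in these fits, with 60, 105, 338, 88 and 616 above the product. The mouse block gave 24 of the list and 704 of all genes. Linear calls were 9, all above the sum (22.5% against 8.66% of all genes), but for 28 of the 40 genes the sum expectation was below 0, which no level can reach. Over all tested genes the sum expectation was below 0 for 591 genes, and for 276 of the 539 that lay above the sum with LP 3M PIC called below LP.

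Mki67, the nuclear protein that marks dividing cells, measured 101, 69.2, 97.0, 111 and 78.0 CPM in LP 3M PIC and 125, 134, 130, 161 and 228 CPM in LP 3M. It measured 39.7, 39.2, 37.3, 46.6 and 39.9 CPM in LP PIC and 348, 289, 162, 253 and 272 CPM in LP. The 4 conditions ran upward in the order LP PIC, LP 3M PIC, LP 3M and LP in every mouse, and only LP 3M and LP overlapped. The log2 interaction was 1.94 ± 0.26 (adjusted p = 0.000208), above 0 in 5 of 5 mice and kept without any of them. Ccnb2, the B-type cyclin whose promoter is printed above, averaged 3.54 ± 1.24 CPM in LP 3M PIC, 15.9 ± 4.68 CPM in LP 3M, 2.16 ± 0.543 CPM in LP PIC and 39.0 ± 11.5 CPM in LP. Its log2 interaction was 2.00 ± 0.40 (adjusted p = 0.00544, lost without mouse 1 or 2), and it was -0.21 in mouse 5. Ckap2l and Troap, which serve the mitotic spindle, had values of 2.15 ± 0.40 and 2.14 ± 0.41 (adjusted p = 0.00346 and 0.00448, both lost without mouse 1). Hdac9, a histone deacetylase, had the largest value of the genes named by rank in this class, 2.65 ± 0.39 (adjusted p = 0.000423).

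**Figure D4:**
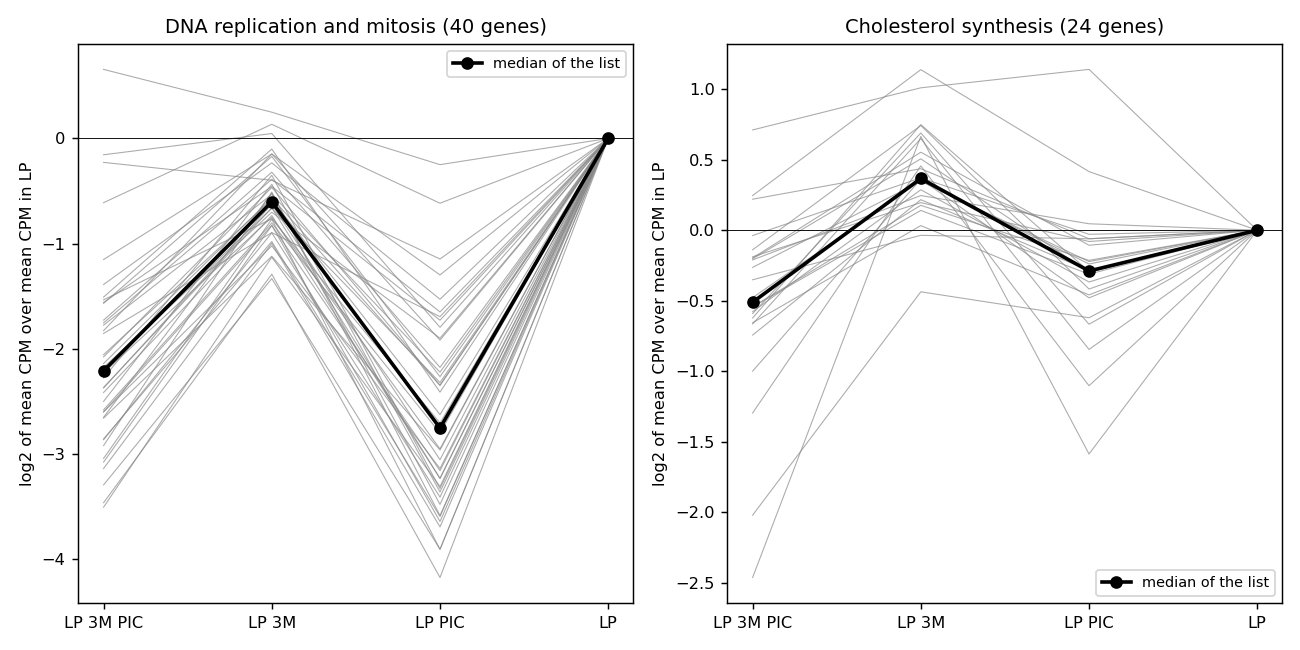
Mean CPM over LP on the log2 scale for each member of 2 lists, with LP 3M PIC at the left and LP at 0 at the right; thin lines are genes and the thick line is the median. The 40 genes of DNA replication and mitosis have medians of -2.21 in LP 3M PIC, -0.60 in LP 3M and -2.75 in LP PIC; the 24 genes of cholesterol synthesis have medians of -0.51, 0.37 and -0.29.

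Cholesterol synthesis moved the other way on both scales. All 24 tested members had a log2 interaction below 0, with a median of -0.50, and 4 lay below the product (16.7% against 4.62% of all genes), Mvd, Nsdhl and Dhcr7 among them. Below the sum were 15 of the 24 (62.5% against 6.07% of all genes). LP 3M PIC was called below LP 3M for 22 members (against 21% of all genes) and below LP PIC for 4 (against 21.4%). Without mice 1 to 5 the number below the sum was 5, 9, 10, 12 and 12, and it was 6 with no mouse block. Over all genes it was 250, 376, 517, 358 and 688, and 388 with no mouse block.

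Mvd, which makes the isoprene unit of sterols, measured 18.2, 12.7, 35.3, 21.8 and 38.2 CPM in LP 3M PIC and 29.2, 30.3, 32.5, 25.5 and 37.7 CPM in LP 3M. It measured 30.2, 28.8, 36.6, 27.4 and 46.9 CPM in LP PIC and 14, 14.2, 16.6, 14.7 and 17.7 CPM in LP. Both singles stood above LP in every mouse, and LP 3M PIC overlapped all 3 other conditions. The linear interaction was -24.4 ± 7.11 CPM (adjusted p = 0.00297, kept without any mouse) and the log2 interaction -1.44 ± 0.33 (adjusted p = 0.0113, lost without mouse 1 or 4). Hmgcs1, the synthase at the head of the pathway whose promoter is printed above, averaged 28.3 ± 5.52 CPM in LP 3M PIC, 51.5 ± 4.80 CPM in LP 3M, 32.8 ± 8.19 CPM in LP PIC and 42.3 ± 3.68 CPM in LP. It lay 13.7 CPM under the sum, an interaction of -13.7 ± 5.15 CPM (adjusted p = 0.0118), with no call on the log2 scale (adjusted p = 0.15) unless the mouse was a block (adjusted p = 0.0257).

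Among 34 genes of oxidative phosphorylation 13 lay below the sum (38.2% against 6.07% of all genes) and 4 below the product (11.8% against 4.62%). Their median log2 interaction was -0.23, with 31 below 0. By level 17 were called higher and 2 lower in LP 3M PIC than in LP (against 31.7% and 30.6% of all genes). Leaving out each mouse gave 0, 1, 5, 0 and 10 below the sum, where all genes gave 250, 376, 517, 358 and 688. Sdhd, a subunit of succinate dehydrogenase, averaged 103 ± 12.4 CPM in LP 3M PIC, 98.2 ± 3.23 CPM in LP 3M, 135 ± 7.71 CPM in LP PIC and 98.6 ± 5.16 CPM in LP (log2 interaction -0.39 ± 0.10, adjusted p = 0.0215, lost without mouse 1, 2 or 4). Of 30 lysosomal genes 9 lay below the sum (30.0% against 6.07%) and 1 above it (3.3% against 8.66%). Below the product lay 5 (16.7% against 4.62%), and 28 had a log2 interaction below 0. By level 5 were called higher and 18 lower in LP 3M PIC than in LP (against 31.7% and 30.6% of all genes). Leaving out each mouse gave 2 to 9 below the sum, where all genes gave 250 to 688. Ctsz, a lysosomal cathepsin, averaged 3803 ± 490 CPM in LP 3M PIC, 3156 ± 247 CPM in LP 3M, 4383 ± 482 CPM in LP PIC and 1918 ± 346 CPM in LP, below the sum by a linear interaction of -1818 ± 756 CPM (adjusted p = 0.00973).

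Of 26 macrophage identity genes 2 lay below the product (7.7% against 4.62% of all genes), 3 above the sum (11.5% against 8.66%) and 4 below it (15.4% against 6.07%). Csf1r, the CSF-1 receptor, measured 1301, 1360, 1436, 1261 and 1655 CPM in LP 3M PIC and 1930, 1819, 2366, 2073 and 2554 CPM in LP 3M. It measured 2179, 2058, 1887, 1652 and 1869 CPM in LP PIC and 1898, 1732, 2141, 1939 and 1696 CPM in LP. LP 3M PIC was the lowest condition in every mouse, and neither single differed from LP by the test (adjusted p = 0.163 for LP 3M and 0.808 for LP PIC). The linear interaction was -793 ± 210 CPM (adjusted p = 0.00705, kept without any mouse) and the log2 interaction -0.65 ± 0.15 (adjusted p = 0.0122, lost without mouse 1, 2 or 4).

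Lyz2 averaged 6654 ± 1734 CPM in LP 3M PIC, 14050 ± 2774 CPM in LP 3M, 9311 ± 2410 CPM in LP PIC and 9318 ± 3115 CPM in LP, a linear interaction of -7389 ± 2229 CPM (adjusted p = 0.00429). Its log2 interaction was -1.08 ± 0.33 (adjusted p = 0.0475, lost without mouse 1, 2, 3 or 4). Adgre1, the surface marker F4/80, averaged 2479 ± 813 CPM in LP 3M PIC, 4142 ± 1290 CPM in LP 3M, 735 ± 86.8 CPM in LP PIC and 665 ± 64.6 CPM in LP (linear interaction -1734 ± 610 CPM, adjusted p = 0.00429). Vim, an intermediate filament protein, averaged 2617 ± 274 CPM in LP 3M PIC, 4419 ± 409 CPM in LP 3M, 3741 ± 207 CPM in LP PIC and 4024 ± 181 CPM in LP (log2 interaction -0.65 ± 0.12, adjusted p = 0.00279). Fabp4, a fatty acid carrier, averaged 15.2 ± 11.5 CPM in LP 3M PIC, 42.9 ± 14.5 CPM in LP 3M, 82.0 ± 19.6 CPM in LP PIC and 58.9 ± 10.6 CPM in LP (linear interaction -50.8 ± 13.3 CPM, adjusted p = 0.00208). In Csf1r, Vim, Fabp4, Ccl6 and Cd22, neither single was called against LP while LP 3M PIC was called below it. Cd22 averaged 2.79 ± 2.20 CPM in LP 3M PIC and 11 ± 2.38 CPM in LP.

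**Figure D5:**
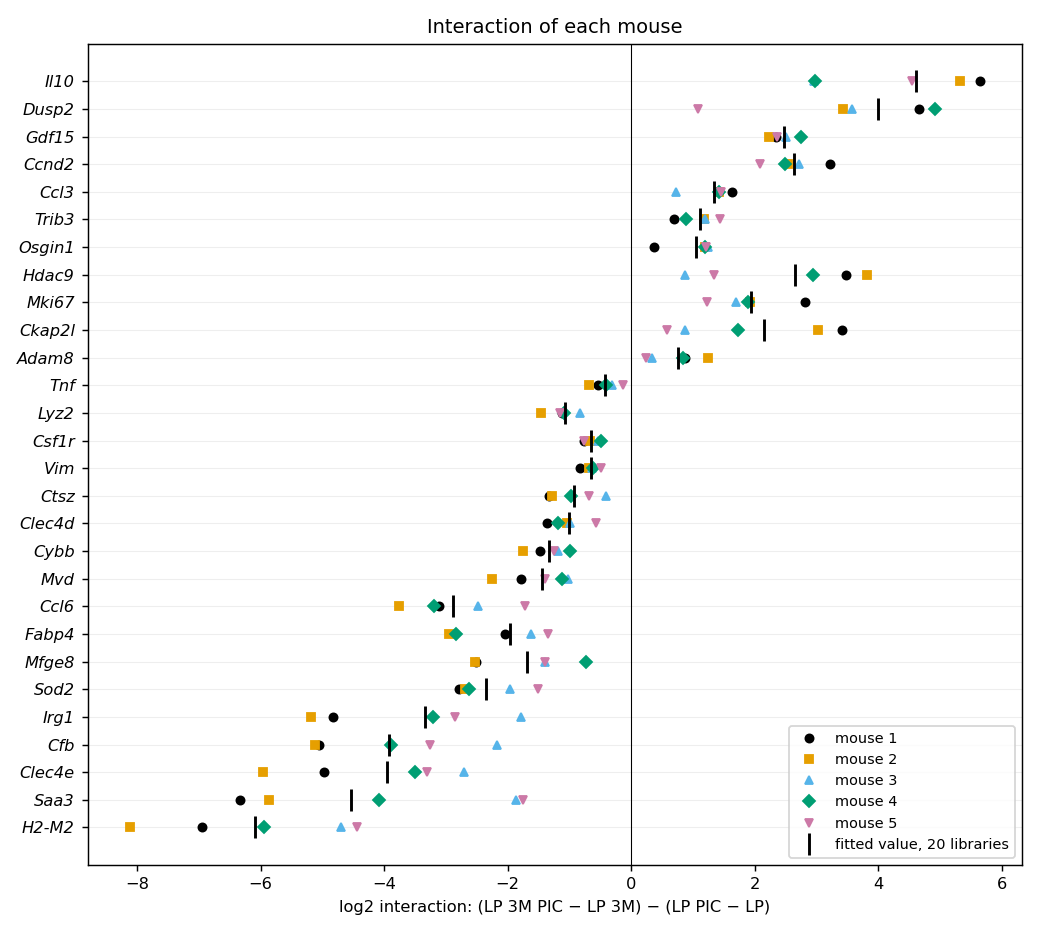
Log2 interaction of each of the 5 mice (coloured points) for 28 named genes with enough counts in every condition; the line at 0 is the product expectation. Il10 lies between 2.96 and 5.65, Gdf15 between 2.24 and 2.75, and H2-M2 between -8.11 and -4.44; Tnf lies between -0.68 and -0.12.

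The remaining lists are read against 3.82% of all genes above and 4.62% below the product, and 8.66% above and 6.07% below the sum. Pattern recognition receptors and adaptors had 5 of 32 below the product (15.6%), led by Clec4e, and 6 above (18.8%) and 2 below (6.2%) the sum. Inflammasome genes had 3 of 20 below the product (15%), led by Pycard, the ASC adaptor, at 49.99 ± 9.37 CPM in LP 3M PIC, 56.6 ± 5.70 CPM in LP 3M, 72.8 ± 5.69 CPM in LP PIC and 45.6 ± 3.91 CPM in LP (log2 interaction -0.85 ± 0.15, adjusted p = 0.0021). Matrix proteases had 2 of 19 below the product (10.5%), led by Mmp14, a membrane-bound collagenase, at -3.52 ± 0.35 (edgeR adjusted p = 1.21e-05), and 1 above (5.3%), Adam8. LXR targets and lipid handling had 1 of 21 above the product (4.8%), the cholesterol exporter Abcg1 at 0.57 ± 0.12 (edgeR adjusted p = 0.00653), and 3 below (14.3%). NRF2 targets had 1 of 23 above the product (4.3%) and 1 below (4.3%), and 6 above (26.1%) and 2 below (8.7%) the sum. Glycolysis had 1 of 24 below the product (4.2%), Hif1a, the hypoxia factor, at -0.61 ± 0.14 (edgeR adjusted p = 0.0129, lost without mouse 1 or 3). Alternative activation had 1 of 12 (8.3%), Socs2, a cytokine signalling inhibitor with few counts in LP. The call of Socs2 was lost with the mouse block (edgeR adjusted p = 0.0513) and without each mouse in turn.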

How the data were processed

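For each library the authors deposited a table of unnormalised gene counts. Tools named in the submitters' processing notes are HTSeq 0.13.5, STAR 2.7.11b, DESeq2 1.44.0 and FastQC 0.11.1, and the build is GRCm38. Libraries were stranded and poly(A)-enriched, per the labels. Neither the annotation nor the strand setting of the counting is given in the sources used here, so overlapping and antisense genes may share reads. Entries of no gene (5.94 to 8.58% outside genes and 1.14 to 1.90% ambiguous) stayed out of library sizes and tests.

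Genes were kept by filterByExpr (minimum count 10, minimum total 15), which left 12132 genes with 99.969% of the deposited counts. TMM factors were 0.945 to 1.07. Log2 interactions came from edgeR 4.0.16 in R 4.3.3 (quasi-likelihood F-test, two-sided, robust, 1 mean per condition over 20 libraries, biological coefficient of variation 0.194), with SE as the absolute value divided by the square root of F. Linear interactions came from limma 3.58.1 (intercept only, trend and robust) on 5 per-mouse TMM-scaled CPM values, each divided by the gene's mean, with errors printed as SD over mice. An exact sign-flip test of 5 mice cannot go below p = 0.0625, so the spread was pooled over genes. Adjusted p-values are Benjamini-Hochberg over all tested genes, and called means under 0.05. Per-mouse log2 values use a prior count of 2. No log2 interaction is given for genes with a mean under 3 counts per library in any condition, which are 260 tested genes (2.14%), 4 of the calls above 0 and 16 of those below. On simulated counts with known folds, 84% of 2-fold and 96% of 4-fold interactions upward were recovered on the log2 scale and 80% and 100% on the linear scale. Downward, 88% of both sizes were recovered on the log2 scale but 70% and 76% on the linear scale. False calls were 5.32% and 8.43% of all calls. The simulated libraries were drawn independently, with no effect of the mouse, unlike the libraries here. Unaltered genes were left out of these calls where a condition was near 0 (log2 scale) or the sum expectation lay under the lowest condition (linear scale). The rates therefore may not carry over to the calls of this report.

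Equal replicate numbers mean the same mouse, per the labels. Over 2000 genes, deviations from the condition means correlated at 0.159 to 0.624 (median 0.446) in 30 pairs of libraries of the same mouse and at -0.448 to 0.406 (median -0.202) in 120 pairs of different mice.

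Members, gene lists, alternatives and the naming rule were chosen with earlier results of these data known. The rule named, among called genes of 1 direction in 5 of 5 mice, the 5 largest log2 interactions in each of 4 classes and the 6 largest linear ones each way, then 4 genes between sum and product, 4 below both, the smallest p of each list in each direction and a panel of 34. Ccnb2, Chac1, Hmgcs1 and Nfkbie were added with their promoters, and the listed members of a group were named where a count called for it, after their values were seen. Alternatives were RLE size factors, DESeq2 1.42.0, other filters, prior counts and eBayes settings, plain totals, the block, a threshold of 0.01 and leaving out mice or libraries. Tables and figures used Python 3.11.15, pandas 2.3.3, numpy 2.4.6 and matplotlib 3.10.9; promoter sequences are from RefSeq.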

Additional observations from a re-analysis of the deposited data

Results flagged for a closer look

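Of 158 per-mouse values of named genes, 7 had 1 mouse far from the other 4; chance alone gives about 1 in 20. Arg1, arginase 1, had a linear interaction of 31.2 CPM in mouse 2, against -0.0731 to 3.51 CPM in the others. Cxcl3, a neutrophil attractant, had 361 CPM in mouse 2, against 21.0 to 90.7 CPM. Ccl3 had a log2 interaction of 0.731 in mouse 3, against 1.43 to 1.63. Cd22 had -2.48 in mouse 4, against -1.88 to -1.64. Cybb had a linear interaction of -890 CPM in mouse 4, against -1696 to -1476 CPM. Osgin1 stood apart in mouse 1 on both scales, at 0.371 against 1.19 to 1.24 on the log2 scale and 8.19 CPM against 29.0 to 31.6 CPM on the linear scale.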

How the results depend on the processing

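None of the 1023 log2 and 1787 linear calls changed sign under any alternative. Called genes were picked for a clear direction in these libraries, which every alternative reuses, so kept signs do not test the directions. For 284 of the linear calls the direction was fixed in advance. On the log2 scale the counts above and below the product were 704 and 952 with the mouse as a replicate block, 846 and 1191 with limma on per-mouse values at a prior count of 2 and 770 and 1171 at a prior count of 0.5. They were 122 and 178 at an adjusted p under 0.01. DESeq2 gave 647 and 714. On the linear scale the counts above and below the sum were 695 and 388 with no replicate block, 628 and 412 without trend and robust fitting and 247 and 191 at an adjusted p under 0.01. Plain library totals gave 1347 and 612, 68.8% above the sum. Leaving out each mouse gave 60 to 616 above and 122 to 782 below the product, and 373 to 1012 above and 250 to 688 below the sum.

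Among genes called above LP, those above the product numbered 201 with the block, 289 and 260 with the prior counts of 2 and 0.5, and 18 to 170 without single mice. Those between product and sum numbered 20 with the block, 6 without a filter, 17 with DESeq2, 19 and 20 with the prior counts, 7 without trend and robust fitting, and 2 to 15 without single mice or libraries. Those below both numbered 87 without trend and robust fitting and 24 to 175 without single mice. Those above the sum alone numbered 141 and 158 with the prior counts, 91 with no replicate block, 150 without trend and robust fitting and 122 to 295 without single mice or libraries. Among genes called below LP, those below the product numbered 287 with the block, 384 and 372 with the prior counts and 12 to 238 without single mice, and those above it 23 to 319 without single mice and 163 without the LP library of mouse 2.

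Uncalled values that changed sign were few. On the log2 scale Cxcl1 was 0.0638 with the block, 0.41 and 0.24 with the prior counts, and -0.884 to 0.0767 without single mice, above 0 without mouse 2. Cd40 was -0.00312 without a filter, kept its sign at 0.287 without mouse 4, and was -0.21 without mouse 3, -0.19 without mouse 5, -0.15 without LP 3M replicate 5, -0.04 without LP replicate 2 and -0.23 without LP 3M PIC replicate 3. Il1b was 0.30 and 0.0841 with the prior counts and -0.930 to 0.53 without single mice, above 0 without mouse 1. Lrp1 was -0.10 without mouse 2, -0.03 without mouse 4 and -0.00414 without LP replicate 2, and Cxcl10 was -0.509 to 0.0885 without single mice, above 0 without mouse 4. On the linear scale Mrc1 was -9.48 CPM without mouse 1, Clec4e -816 to 30.2 CPM without single mice, above 0 without mouse 2, Ccl5 -133 to 953 CPM, below 0 without mouse 3, and Ciita -3.58 CPM without mouse 3.

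Of 56 named genes called on the log2 scale 24, and of 50 on the linear scale 22, kept the call without any 1 mouse. The edgeR block fit added a log2 call for 7 named genes (Adgre1, B2m, Ccl2, Hmgcs1, Il27, Mrc1 and Psap) and ended that of Socs2. Leaving the block out of the linear fit ended 14 calls (Adgre1, B2m, Bcl2a1a, Calr, Cd22, Cd274, Cxcl1, Cxcl2, Ehd1, Hmgcs1, Hmox1, Lrp1, Prdx5 and Psap) and added 7. The cause of these changes was not tested; the smaller sets hold fewer libraries. Depth limits genes at a few counts in LP, whose log2 values rest on the prior count.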

Other observations

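Genes of the naming rule outside the groups above are given here as values. Adam8, a membrane metalloprotease, lay above both expectations at 1433 ± 399 CPM in LP 3M PIC, 1728 ± 227 CPM in LP 3M, 1086 ± 102 CPM in LP PIC and 2212 ± 341 CPM in LP (SD, n = 5), with a linear interaction of 831 ± 457 CPM (limma adjusted p = 0.0181, lost without mouse 1 or 4). Lrp1, a scavenger receptor that clears dying cells, averaged 634 ± 70.1 CPM in LP 3M PIC, 1701 ± 294 CPM in LP 3M, 1004 ± 289 CPM in LP PIC and 2801 ± 316 CPM in LP. Its sum expectation was -95.7 CPM, which no level can fall under. The direction of its call above the sum (limma adjusted p = 0.0484, lost without mouse 1, 2, 3 or 4) was thus fixed in advance. Lrp1 sat at its product expectation of 610 CPM. Nptx1, a pentraxin, averaged 1.77 ± 1.01 CPM in LP 3M PIC, 9.26 ± 2.92 CPM in LP 3M, 2.75 ± 1.03 CPM in LP PIC and 66.4 ± 29.5 CPM in LP, with a log2 interaction of 2.20 ± 0.53 (edgeR adjusted p = 0.016, lost without mouse 1, 4 or 5). Psap, the precursor of the saposins of lysosomal lipid breakdown, averaged 8103 ± 2823 CPM in LP 3M PIC and 12685 ± 2618, 14021 ± 1982 and 13784 ± 2883 CPM in LP 3M, LP PIC and LP, with a linear interaction of -4820 ± 2278 CPM (adjusted p = 0.0254, lost without mouse 1, 2, 4 or 5). Mfge8, which bridges phagocytes to dying cells, averaged 59.8 ± 32.1 CPM in LP 3M PIC, 249 ± 58.1 CPM in LP 3M, 256 ± 87.5 CPM in LP PIC and 332 ± 33.6 CPM in LP (log2 interaction -1.69 ± 0.41, adjusted p = 0.0177, lost without mouse 1, 2 or 3).

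Panel genes without a call on either scale in the fits of the report included Ccl2, Ccl5 and Ciita, and fits that pair the libraries of a mouse called Ccl2 and Ciita on the log2 scale. Ccl2, the monocyte attractant, averaged 610 ± 379 CPM in LP 3M PIC, 411 ± 228 CPM in LP 3M, 50.7 ± 12.8 CPM in LP PIC and 96.6 ± 41.1 CPM in LP (log2 interaction 1.498 ± 0.63, adjusted p = 0.154, and 0.00597 with the mouse as a block). Ccl5 averaged 5583 ± 1797 CPM in LP 3M PIC, 461 ± 313 CPM in LP 3M, 4779 ± 1746 CPM in LP PIC and 246 ± 211 CPM in LP (log2 interaction -0.68 ± 0.69, adjusted p = 0.596). Ciita, the master regulator of MHC class II, averaged 47.9 ± 34.5 CPM in LP 3M PIC and 34.3 ± 7.02 CPM in LP PIC against 8.51 ± 3.94 CPM in LP 3M and 2.06 ± 0.943 CPM in LP (log2 interaction -1.57 ± 0.68, adjusted p = 0.168, and 0.014 by limma on per-mouse log2 values).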
